A study of Mus musculus with 15 samples.

Results

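The AMPA and NMDA receptor subunits are the 10 genes Gria1, Gria2, Gria3, Gria4, Grin1, Grin2a, Grin2b, Grin2c, Grin2d and Grin3a, taken by name from the 37310 genes of the count file. All 10 were among the 18008 genes tested. They were followed in the hippocampus of C57BL/6J male mice aged 2 months, in 3 groups of 5 libraries made from polyA-selected RNA. FC mice were handled, were conditioned to a context with 1 foot shock (1.5 mA, 2 s), and were dissected 30 min later. RT mice had the same training, were put back into the chamber for 5 min at 24 h to retrieve the memory, and were dissected 30 min after retrieval. CC mice, the controls, had the handling without any conditioning and were matched for the hour of dissection. All mice were labelled wild type, and the labels name no drug. The comparisons ask which hippocampal RNAs differed soon after memory acquisition and soon after retrieval. Libraries carry the numbers 3, 5, 6, 7 and 8 within each group, and values for single libraries are given in that order throughout.

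Both families are tetrameric channels opened by glutamate. AMPA receptors are assembled from GluA subunits encoded by the Gria genes and carry most of the fast excitatory current at hippocampal synapses. NMDA receptors pair the obligatory GluN1 subunit, encoded by Grin1, with GluN2 subunits encoded by Grin2a to Grin2d, or with the GluN3A subunit encoded by Grin3a. At rest their pore is blocked by magnesium, so they pass calcium only when glutamate release meets a depolarized membrane, and this coincidence starts long-term potentiation in CA1. The number of AMPA receptors at the synapse is then what changes first, through movement of existing protein.

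The site that sets the calcium permeability of both channels lies in the pore loop, and the coding sequence around it shows how the families are related. The transcript sequences below run 5′ to 3′ on the coding strand, come from the Ensembl annotation of mm9, and hold 5 codons on each side of the codon in capitals, which is the pore-loop codon aligned across the family.
Gria1: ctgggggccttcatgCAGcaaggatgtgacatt
Gria2: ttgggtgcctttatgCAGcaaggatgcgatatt
Gria3: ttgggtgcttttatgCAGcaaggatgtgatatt
Gria4: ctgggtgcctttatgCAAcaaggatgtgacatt
Grin1: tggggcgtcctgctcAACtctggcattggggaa
Grin2a: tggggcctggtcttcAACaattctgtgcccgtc
Grin2c: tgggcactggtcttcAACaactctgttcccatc
Grin2d: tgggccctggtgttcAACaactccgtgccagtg
Grin3a: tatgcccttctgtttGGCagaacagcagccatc
The codon was CAG in Gria1, Gria2 and Gria3 and CAA in Gria4, all reading glutamine. In Gria2 it is codon 607 of the annotated protein, at chr3:80510833-80510835 in exon 11 of 17, and is the Q/R site, where the deaminase encoded by Adarb1 edits the RNA so that arginine is made. Gene counts do not resolve this editing. Grin1, Grin2a, Grin2c and Grin2d had AAC, the asparagine of the NMDA pore that binds magnesium, at codon 637 of Grin1 (chr2:25152906-25152908, exon 14 of 21). Grin3a, whose subunit lowers calcium flow and magnesium block, had GGC, for glycine. Over whole coding sequences the AMPA genes shared 65.9% to 71.5% of aligned bases in pairs and the GluN2 genes 52.8% to 61.6%.

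Library totals were 42051401 to 59093377 reads in FC, 35731428 to 61275293 in RT and 39992029 to 62555543 in CC. FC3 and RT3 stood apart, since the spread of relative log expression, given as the interquartile range over genes of a library's deviation from the median library in natural log units, was 0.825 in FC3 and 0.435 in RT3, and 0.0796 to 0.117 in the other 13 libraries. Markers of excitatory neurons, dentate granule, CA1 and CA3 pyramidal cells were present in every library. Of 4 cerebellar granule cell markers, Gabra6 had at most 1 read in any library and Barhl1 1 to 7, whereas Cbln3 had 17 to 35 and Neurod1, also known from dentate granule cells, 335 to 1264. The 5 choroid plexus markers, none at 0, summed to 2598 to 48699 normalized counts in FC, 1268 to 12777 in RT and 706 to 1334 in CC. In the model with RUVs factors described below, all 5 were called higher in FC vs CC, against 2.24% of all genes called. Ttr alone was called higher in RT vs CC, against 1.01%, and Folr1, Kcnj13 and Ttr in FC vs RT, against 0.122%. The part of choroid plexus in the receptor values was not tested. In tissue RNA, fewer cells of a type and less RNA per cell cannot be told apart. Each sequencing lane held 1 library of every group. The sources differ on how many animals and days stand behind the libraries, so n counts libraries. The p-values measure the part of the spread between libraries that the model in use leaves.

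**Figure D1:**
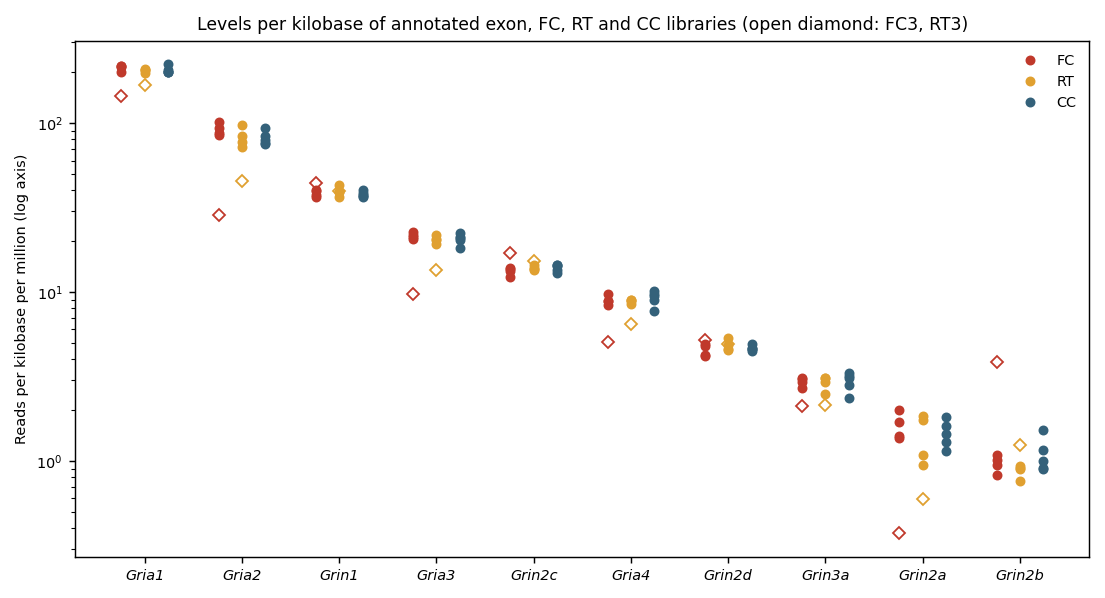
Levels in RPKM, reads per kilobase of annotated exon scaled to the library total (log axis), for the 10 subunit genes, ordered by mean over all libraries, with 1 point per library and the FC, RT and CC libraries side by side. Gria1 is near 200 and Grin2a and Grin2b lie near 1, and the open diamonds of FC3 and RT3 leave the other points in Gria2, Gria3, Grin2a and Grin2b.

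Levels were compared between genes in RPKM, the reads per kilobase of annotated exon scaled to the library total, computed from the counts. Gria1, the GluA1 gene (ENSMUSG00000020524, chr11:56824889-57143746, plus strand), had the highest level in all 15 libraries, at 199 ± 31.5 RPKM in FC, 197 ± 16.4 in RT and 206 ± 9.73 in CC (mean ± SD, n = 5 each here and below). Gria2, the GluA2 gene (ENSMUSG00000033981, chr3:80488858-80606713, minus strand), came next at 79.4 ± 29.2 RPKM in FC, 75.2 ± 19.3 in RT and 81.5 ± 7.51 in CC. Grin1 (ENSMUSG00000026959, chr2:25146701-25174707, minus strand) followed, and was the most abundant NMDA receptor gene at 39.6 ± 2.80, 39.4 ± 2.45 and 38.1 ± 1.51 RPKM in FC, RT and CC. The ranges of Gria2 and Grin1 overlapped in FC, through FC3, and not in RT or CC. Gria3 (ENSMUSG00000001986, chrX:38754031-39031778, plus strand) had 19.1 ± 5.32 RPKM in FC, 19.1 ± 3.18 in RT and 20.6 ± 1.49 in CC, and Gria4 (ENSMUSG00000025892, chr9:4417899-4796234, minus strand), best known from interneurons and the cerebellum, had 8.17 ± 1.81, 8.31 ± 1.07 and 9.20 ± 0.939.

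Between them stood Grin2c (ENSMUSG00000020734, chr11:115110483-115128557, minus strand), a GluN2 gene best known from cerebellar granule cells, with 14.1 ± 1.81 RPKM in FC, 14.2 ± 0.754 in RT and 13.9 ± 0.605 in CC. It was the most abundant GluN2 gene in every library. Grin2d (ENSMUSG00000002771, chr7:53087253-53126298, minus strand), the GluN2D gene of early development and interneurons, had 4.66 ± 0.443 RPKM in FC, 4.85 ± 0.324 in RT and 4.66 ± 0.177 in CC. Grin3a (ENSMUSG00000039579, chr4:49674483-49858616, minus strand) had 2.78 ± 0.409, 2.76 ± 0.428 and 2.95 ± 0.373 RPKM in FC, RT and CC. The 2 GluN2 genes that are known as the main ones of the adult forebrain were lowest. Grin2a (ENSMUSG00000059003, chr16:9577803-9995014, minus strand) had 1.37 ± 0.612 RPKM in FC, 1.24 ± 0.534 in RT and 1.46 ± 0.264 in CC, and Grin2b (ENSMUSG00000030209, chr6:135679844-136123529, minus strand) had 1.55 ± 1.30, 0.946 ± 0.178 and 1.09 ± 0.258. The ranges of Grin2a and Grin2b overlapped in every group, whereas both lay below the range of Grin3a in RT and CC. Without FC3 and RT3 the mean level of Grin2b was 0.968 RPKM in FC and 0.873 in RT, and that of Grin2a 1.62 and 1.40. Other neighbours in the order whose ranges overlapped did so in FC or RT and through the number 3 library. They were Gria3 and Grin2c in FC and in RT, Gria4 and Grin2d in FC, and Grin3a and Grin2b in FC.

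The order rests on annotated length. All annotated exons of Grin1 cover 9700 bases and its longest coding transcript 4276, and per kilobase of the longest transcript, a choice made after the data were seen, Grin1 had 89.7 ± 6.35 RPKM in FC, 89.4 ± 5.55 in RT and 86.4 ± 3.43 in CC, and its range overlapped that of Gria2 in each group. Gria3 then had 36.3 ± 10.1 RPKM in FC, 36.2 ± 6.04 in RT and 39.2 ± 2.82 in CC. Grin3a, at 5.85 ± 0.861, 5.80 ± 0.901 and 6.21 ± 0.786 RPKM in FC, RT and CC, came above Grin2d in each group by its mean, with overlapping ranges. Grin2c remained above Grin2a and Grin2b. The longest annotated 3′ untranslated region is 117 bases in Grin2a and 2272 in Grin2b, 402 in the more abundant Grin2c, and 2253 to 3782 in the AMPA receptor genes. A later RefSeq annotation (GRCm38) makes Grin2a 10971 and Grin2b 16709 bases longer in span, Gria2 4922 and each of the other 7 genes at most 279. Whether reads from such stretches, which are not in these counts, bear on the low levels of Grin2a and Grin2b was not tested. Grin1 shares 1307 exonic bases with the antisense gene E130003G02Rik, which had 212 normalized counts in FC3, 785 to 974.5 in the other FC libraries, 637 to 838 in RT and 790 to 890 in CC. Reads there cannot be assigned to a strand, since the library kit did not mark it.

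**Figure D2:**
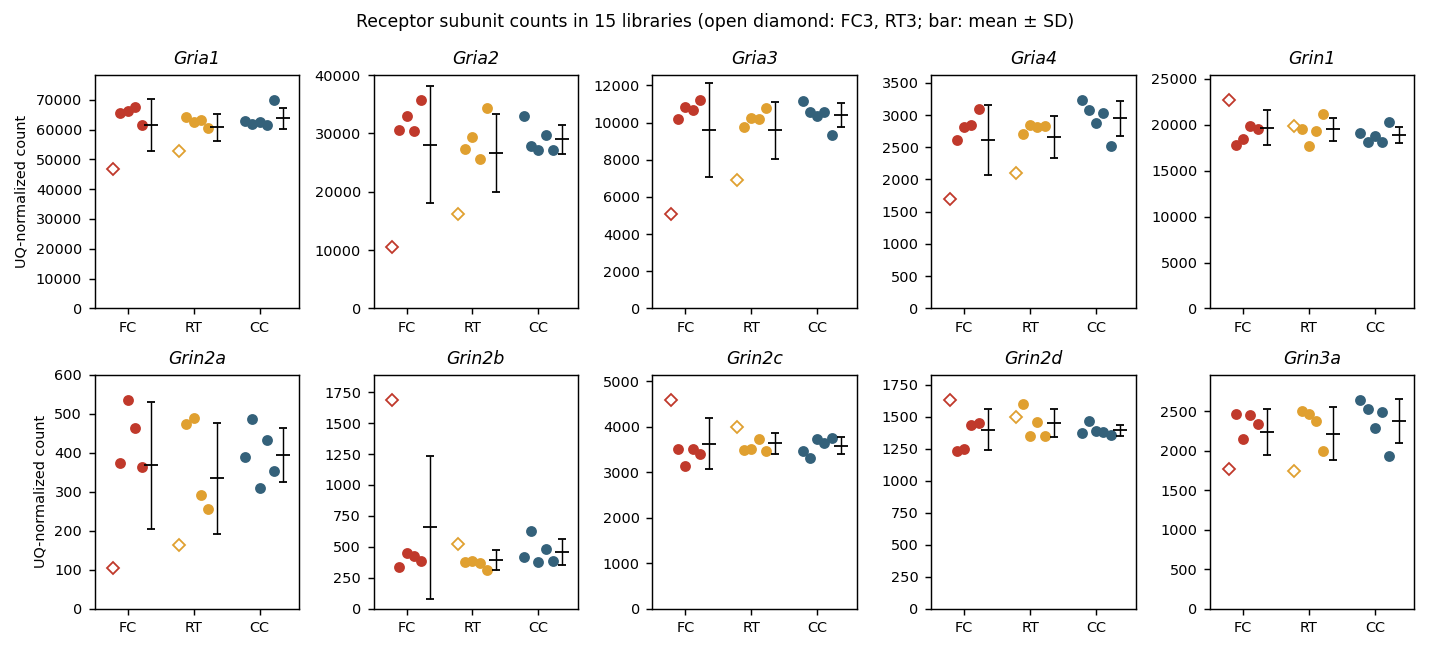
Upper-quartile (UQ) normalized counts of each subunit gene, 1 panel per gene with its own axis from 0, 1 point per library, and the mean ± SD of the 5 libraries of each group beside them. In FC the open diamond of FC3 lies below the other 4 libraries in Gria1 to Gria4, Grin2a and Grin3a and above them in Grin1, Grin2b, Grin2c and Grin2d.

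Within a gene, libraries were compared as counts scaled by the upper quartile (UQ), called normalized counts. Gria1 had 46601, 65636, 66236, 67714 and 61547 normalized counts in FC libraries, 52769.5, 64363, 62499, 63322 and 60565 in RT and 62879, 61788, 62386, 61566 and 70032 in CC. FC3 and RT3 were the lowest of all 15, and without them every library was between 60565 and 70032. The 5 CC libraries included the highest value, in CC8, where the other 4 CC libraries were within 61566 to 62879. For Gria2, the subunit that makes the channel impermeable to calcium once edited, the values were 10557, 30622, 32992, 30447 and 35803 in FC, 16270.1, 27417, 29405, 25685 and 34398 in RT and 32950.2, 27890.2, 27151, 29786 and 27122 in CC. FC3 was the lowest of all and RT3 the next, both below every other library. The spread of the others, with the number 8 library highest in FC and RT and the number 3 library highest in CC, left the groups overlapping.

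Gria3, the X-linked GluA3 gene, had 5109, 10171, 10843, 10701 and 11239.7 normalized counts in FC, 6939, 9769, 10228, 10174 and 10812 in RT and 11142, 10588, 10330.3, 10571 and 9356 in CC. Without FC3 and RT3 all lay between 9356 and 11239.7. Gria4 had 1696, 2612, 2808, 2849 and 3092 in FC, 2093, 2713, 2839, 2814 and 2829.9 in RT and 3239, 3072, 2879, 3036 and 2516 in CC. Here 4 of the 5 CC libraries lay above the median of FC and of RT, while CC8, the lowest CC library, lay below 4 of the FC and 4 of the RT libraries.

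Grin1, without which no NMDA receptor reaches the surface, varied little, with 22735, 17828, 18463, 19809.5 and 19538 normalized counts in FC, 19809, 19498, 17727, 19290.4 and 21196 in RT and 19089.9, 18131, 18797, 18149 and 20320.3 in CC. FC3 was the highest of the 15. For Grin2a the values were 105, 374, 536, 463 and 365 in FC, 164, 475, 489.7, 292 and 255 in RT and 389, 487, 310.00, 433 and 354 in CC. FC3 and RT3 were the lowest of all, RT8 and RT7 the next, and the FC and CC libraries other than FC3 ran through each other. Grin2b, the GluN2B gene, whose subunit binds CaMKII, had 1687, 336, 451, 427 and 389 in FC, 526, 379, 386, 373 and 313 in RT and 415, 627, 374, 483 and 385 in CC. FC3 was the highest by far, CC5 the next and RT3 the highest in RT. The other 4 RT libraries lay between 313 and 386, and overlapped FC5, CC6 and CC8. These are low counts, and in raw reads FC3 had 1665 of Grin2b (exact Poisson 95% interval 1586 to 1747) and 104 of Grin2a (84.98 to 126), intervals that cover counting error only.

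The 3 remaining NMDA receptor genes had narrower ranges. Grin2c had 4594, 3515, 3136, 3519.9 and 3398 normalized counts in FC, 3999, 3487, 3512, 3731 and 3469 in RT and 3465, 3325, 3737, 3648 and 3763 in CC, with FC3 and RT3 highest. Grin2d had 1632, 1237, 1251, 1433 and 1450.5 in FC, 1497, 1604, 1352, 1458 and 1348 in RT and 1376, 1471, 1390.5, 1385 and 1361 in CC, again with FC3 the highest. Its 4 CC libraries other than CC5 were within 1361 to 1390.5. Grin3a had 1772, 2461, 2154, 2459 and 2339 in FC, 1745, 2502, 2470.04, 2375 and 1995 in RT and 2644, 2528, 2291, 2487 and 1932 in CC, with RT3 and FC3 the lowest, then CC8 and RT8. Leaving out FC3 and RT3, the coefficient of variation within a group was 2.56% to 5.59% for Gria1. It was 17.4% to 32.2% for Grin2a. For none of the 10 genes did FC and CC, RT and CC, or FC and RT fall into ranges that did not overlap. Over all 18008 genes the groups did not overlap for 0.961% in FC vs CC, 1.35% in RT vs CC and 0.228% in FC vs RT.

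**Figure D3:**
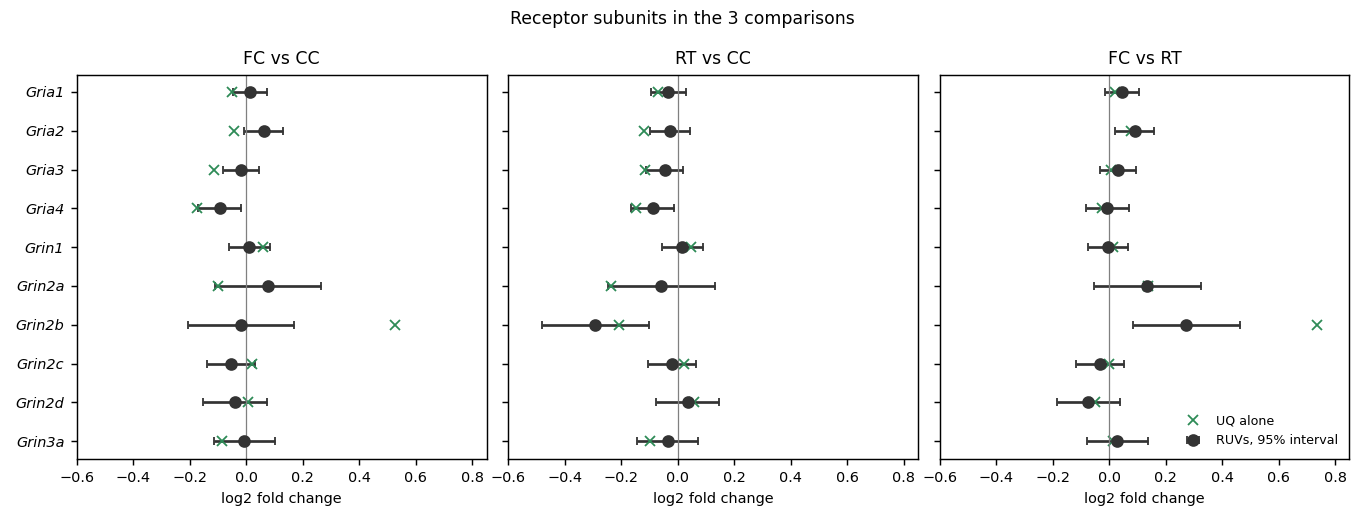
log2 fold changes of the 10 subunit genes in FC vs CC, RT vs CC and FC vs RT. Points with 95% intervals come from the model with RUVs factors and crosses from the model with UQ factors alone, and the crosses of Grin2b in FC vs CC and FC vs RT lie well to the right of their points.

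Expression was modelled for all 15 libraries together in edgeR with UQ factors and 5 RUVs factors, which are estimates of unwanted variation from differences between libraries of the same group, and tested by likelihood ratio. This left 7 residual degrees of freedom. The common coefficient of variation between libraries, beyond counting error, was 0.0451 with RUVs factors and 0.203 with UQ factors alone. A gene was called where its p, adjusted by Benjamini-Hochberg over all tested genes (FDR), was below 0.01. In FC vs CC, 0 of the 10 subunit genes passed, against 2.24% of all genes, and 1 had an unadjusted p below 0.05, against 16.5%. The median log2 fold change was -0.01 over the 10 genes and -0.01 over all genes. Gria4 had the smallest p and was at -0.095 on the log2 scale (SE 0.039, edgeR FDR 0.156). Gria2 was at 0.061 (SE 0.035, edgeR FDR 0.388). Gria1, Gria3, Grin1 and Grin3a had values within 0.02 of 0, with SEs of 0.03 to 0.05. The 95% interval of the fold change was 0.966 to 1.05 for Gria1 and 0.957 to 1.06 for Grin1. It was 0.926 to 1.20 for Grin2a and 0.865 to 1.124 for Grin2b, the widest pair of intervals in the family. With UQ factors alone, 0 of 10 passed, against 0.189% of all genes, and 0 had an unadjusted p below 0.05. The fold change of Grin2b then was 0.53 on the log2 scale (SE 0.33, edgeR FDR 0.966) in place of -0.020 with RUVs, and without FC3 and RT3 it was -0.19.

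In RT vs CC, again 0 of the 10 passed, against 1.01% of all genes with RUVs factors and 0.106% with UQ factors alone, and 2 had an unadjusted p below 0.05 with RUVs, against 11.1%, and 0 with UQ. Of the 10, 8 had a negative log2 fold change, with a median of -0.03 beside 0.00 over all genes. Grin2b was lowest, at -0.29 (SE 0.097, edgeR FDR 0.101), or 0.816 times its CC level with a 95% interval of 0.716 to 0.931. Its RUVs-adjusted counts were 407, 386, 396, 404 and 410.04 in RT and 445, 623, 433, 445 and 501 in CC. RUVs takes its factors from the spread within groups, so a narrow spread after it is by construction. Separation of groups after RUVs was not counted over all genes, so none is read from adjusted counts here or below. Leaving out CC6 gave -0.40 and an edgeR FDR of 0.00423, past the threshold, while over all 28 alternative settings its FDR was 0.00423 to 1.000 and its sign negative in each. Gria4 was at -0.089 (SE 0.039, edgeR FDR 0.324), close to its value in FC vs CC, a comparison that shares the CC libraries. The other 8 lay between -0.059 (Grin2a) and 0.034 (Grin2d).

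In FC vs RT, the contrast of acquisition with retrieval, 0 of the 10 passed with RUVs factors, against 0.122% of all genes, or 22 genes, and 0 with UQ factors alone, against 0%. With the library number as a block beside the RUVs factors, 82 genes passed and still 0 of the 10. An unadjusted p below 0.05 was seen for 2 with RUVs, against 10.7% of all genes, and for 1 with UQ. Grin2b was at 0.27 (SE 0.096, edgeR FDR 0.187) and Gria2 at 0.089 (SE 0.035, edgeR FDR 0.268). RUVs-adjusted counts of Grin2b were 477, 423, 501, 515 and 498 in FC and those of RT as above. Before the adjustment FC5 lay below 4 RT libraries. Leaving out CC5 gave Grin2b an edgeR FDR of 0.00494 at a log2 fold change of 0.27, and over all 28 settings the FDR was 0.00494 to 1.000. Without FC3 and RT3 the log2 fold change of Grin2b fell to 0.097 (edgeR FDR 0.794), and without FC3 alone to 0.14 (edgeR FDR 0.770). Gria2 without FC3 and RT3 was at 0.15 (edgeR FDR 0.0449) and its FC vs CC value then was 0.13 (edgeR FDR 0.0215), both short of the threshold. By edgeR's quasi-likelihood test and by DESeq2, 0 of the 10 passed in each of the 3 comparisons. No subunit gene is among the 625 negative control genes.

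**Figure D4:**
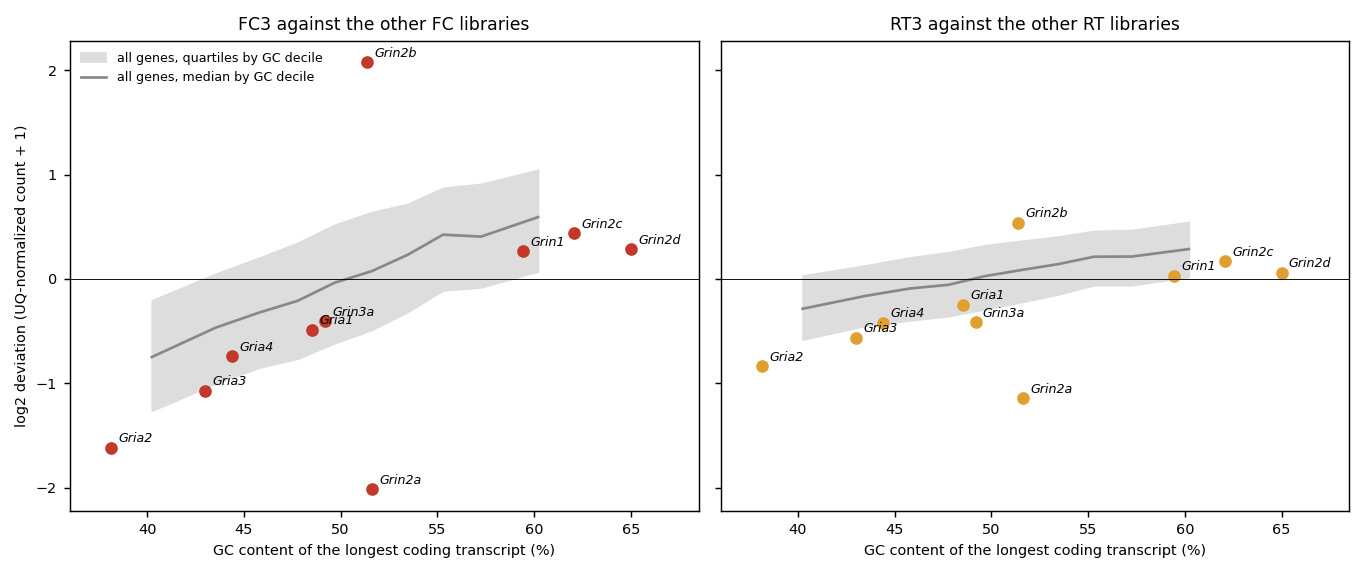
log2 deviation of FC3 (left) and RT3 (right) from the mean of the other 4 libraries of its group, against the GC content of the longest coding transcript. Points are the 10 subunit genes, and the line and band are the median and quartiles of all tested protein-coding genes by GC decile. The points of the genes other than Grin2a and Grin2b climb from Gria2 at the lower left to Grin2c and Grin2d at the right, with Grin2b above and Grin2a below the band in both panels. Gria2 and Gria3 also lie below the lower quartile of their GC decile in both panels, and Grin3a in that of RT3.

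The largest differences between libraries were thus those of FC3 and RT3, and their direction depended on the subunit. Relative to the mean log2 normalized count of the other 4 FC libraries, FC3 deviated by -1.62 for Gria2, -1.07 for Gria3, -0.74 for Gria4 and -0.49 for Gria1. All 4 AMPA receptor genes were lower in FC3. Grin1, Grin2c and Grin2d deviated the other way, by 0.27, 0.44 and 0.29, and Grin3a by -0.41. The extremes were Grin2a at -2.02, at percentile 5.09, and Grin2b at 2.08, at percentile 99.6 of the deviations of all tested genes. RT3 had the same sign for every gene and, except for Grin3a, a smaller deviation, with -0.84 for Gria2, -1.14 for Grin2a and 0.54 for Grin2b. In the other 13 libraries no subunit gene deviated by more than 0.67.

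GC content moved with these deviations. The longest coding transcript of Gria2 has 38.1% GC, that of Gria3 43.0%, Gria4 44.4%, Gria1 48.5% and Grin3a 49.2%, and those of Grin1 and Grin2c have 59.4% and 62.1%, with Grin2d above both. Over 15551 tested protein-coding genes, the median deviation of FC3 was -0.75 in the decile of lowest GC and 0.59 in the decile of highest, and that of RT3 -0.29 and 0.29. Pearson's r between GC and the FC3 deviation was 0.38 over these genes and 0.52 over the 10 subunit genes, which share their libraries and are not independent. In FC3 the 8 genes other than Grin2a and Grin2b all lay below the median of their GC decile, at -0.15 (Grin2c) to -0.87 (Gria2) from it. Furthest from the decile median, on opposite sides, were Grin2a and Grin2b. Their GC contents are 51.6% and 51.4%, in the same decile, whose median in FC3 is 0.075. Cell type markers differed in the same libraries, with 5 oligodendrocyte markers at a sum of 379277 in FC3 and 339860 in RT3, against 221830 to 264869 in the other 13 libraries. The 5 excitatory neuron markers summed to 255255 in FC3, 296172 in RT3 and 325889 to 396262 elsewhere, but not all members followed the sum, of which Camk2a is the largest part. Camk2a was below the other 13 libraries in both FC3 and RT3, Slc17a7 and Neurod6 in FC3 and not in RT3, and Neurod2 was highest in FC3, at 12153 against 7852 to 10772 in the other 13. All 5 oligodendrocyte markers were above the other 13 libraries in both. No marker of these lists was at 0. The parts of GC content, RNA quality and cell makeup in the deviations were not tested. After RUVs the deviation of FC3 was at most 0.040 in size for any subunit gene and that of RT3 at most 0.10. Small values are by construction, since RUVs takes its factors from the spread within groups.

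**Figure D5:**
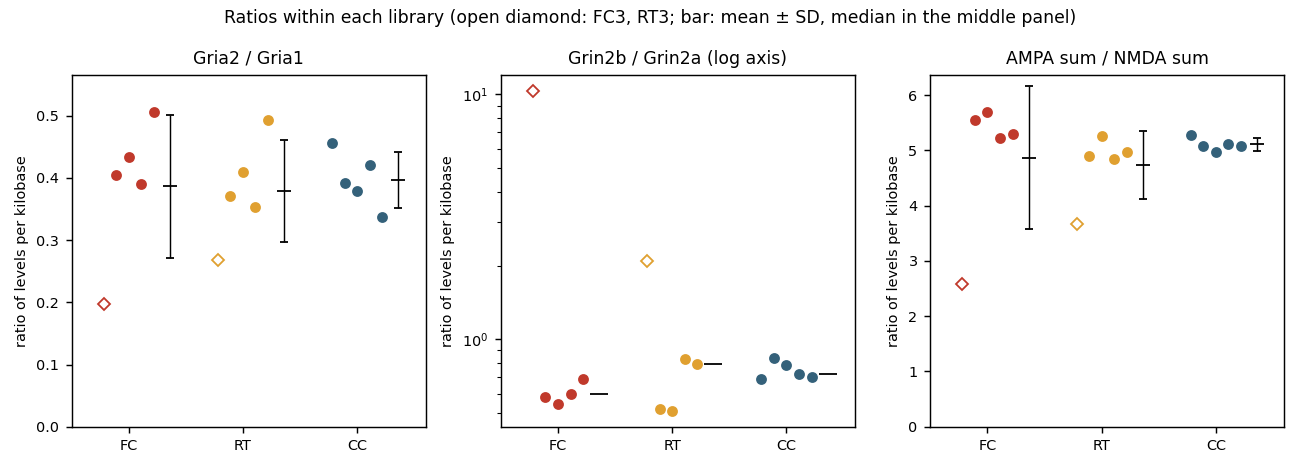
Ratios of levels per kilobase within each library for Gria2 to Gria1, Grin2b to Grin2a (log axis) and the 4 AMPA to the 6 NMDA receptor genes, with 1 point per library and the group mean ± SD, or the group median for Grin2b to Grin2a. FC3 and RT3 are the lowest of their groups in the outer panels and the highest in the middle one.

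Ratios between subunits do not depend on the size factor of a library. They are given as description, from levels per kilobase. Gria2 to Gria1 was 0.197, 0.405, 0.433, 0.391 and 0.505 in FC, 0.268, 0.370, 0.409, 0.352 and 0.493 in RT and 0.455, 0.392, 0.378, 0.420 and 0.336 in CC, with means of 0.386 ± 0.115, 0.378 ± 0.0823 and 0.396 ± 0.0447. The FC and RT ranges enclosed the CC range, but only through FC3 and RT3. The other FC libraries ran from 0.391 to 0.505 and the other RT libraries from 0.352 to 0.493, against 0.336 to 0.455 in CC. Grin2b to Grin2a, the ratio that falls as the forebrain matures, was 10.4, 0.583, 0.546, 0.597 and 0.691 in FC, 2.08, 0.517, 0.510, 0.828 and 0.796 in RT and 0.691, 0.835, 0.783, 0.723 and 0.704 in CC. Per kilobase, only FC3 and RT3 had more Grin2b than Grin2a. In raw reads every CC library, FC8, RT7 and RT8 had more Grin2b too, with 774 reads against 601 in CC5. Without FC3 and RT3, the mean ratios per kilobase were 0.604 ± 0.0616 in FC (n = 4), 0.663 ± 0.173 in RT (n = 4) and 0.747 ± 0.0604 in CC (n = 5). The 4 AMPA receptor genes summed to 2.59, 5.54, 5.69, 5.22 and 5.30 times the 6 NMDA receptor genes in FC, 3.67, 4.90, 5.26, 4.85 and 4.98 times in RT and 5.28, 5.08, 4.97, 5.12 and 5.09 times in CC. The 4 FC libraries other than FC3 were at or above 5.22, where RT6 and CC3 also lay, and FC3 had the lowest ratio of all. The size of this ratio depends on the length used, since per kilobase of the longest transcript its mean was 2.94 ± 0.760 in FC, 2.86 ± 0.366 in RT and 3.10 ± 0.0620 in CC, against 4.87 ± 1.29, 4.73 ± 0.613 and 5.11 ± 0.110 per kilobase of all exons.

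Within the AMPA receptor genes, Gria1 made up 66.20 ± 6.39% of the summed level in FC, 66.13 ± 4.16% in RT and 64.94 ± 2.56% in CC. Gria2 made up 24.98 ± 5.79%, 24.76 ± 3.88% and 25.66 ± 1.92%. Within the NMDA receptor genes the share of Grin1 was 61.88 ± 1.08% in FC, 62.15 ± 2.23% in RT and 61.24 ± 1.41% in CC, and differences between groups were smaller than the spread within them. Of the GluN2 genes, Grin2c held 64.99 ± 2.07% in FC, 66.79 ± 2.69% in RT and 65.88 ± 2.97% in CC. Grin2a held 6.65 ± 3.25%, 5.87 ± 2.49% and 6.90 ± 1.20% of the GluN2 sum in FC, RT and CC, and with FC3 at 1.40% the FC libraries ran from there to 10.2%. All these shares use the length of all annotated exons and depend on that choice. In CC, Grin1 had 38.1 RPKM by all exons and 86.4 by the longest transcript, and Gria3 20.6 and 39.2. Grin2c had 13.9 and 14.3 there, and Grin2a 1.46 and 1.60.

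Genes that work with these receptors were read from lists of auxiliary subunits, trafficking proteins, receptor partners, scaffolds, other glutamate receptors, the Adar gene family and glutamate handling. Of the 17 NMDA receptor partners, 0 rose and 2 fell in FC vs CC, beside 2.24% of all genes called, and 0 were called in RT vs CC or FC vs RT. Among the genes that fell was Dlg2, which encodes the scaffold PSD-93 (log2 fold change -0.14, SE 0.033, edgeR FDR 0.00127). Dlg2 had 548, 8398, 9447, 9017 and 8378 normalized counts in FC and 8999, 8148, 6896, 9785 and 8086 in CC. Of the FC libraries only FC3 lay below the CC range, and in RT so did RT3, at 2236, and RT7, at 6863. Without FC3 and RT3 its log2 fold change was 0.037 (edgeR FDR 0.616), so the call did not hold and the sign turned, and the other call did not hold either. Without FC3 alone it was -0.078 (edgeR FDR 0.356). The call was also lost without CC6 (edgeR FDR 0.0156), CC8 (0.0218), FC5 (0.0173) or RT8 (0.0101). It was lost as well with 1 factor (edgeR FDR 0.180), 3 factors (0.0544), all genes as controls (0.0500025), the quasi-likelihood test (0.0166), no filter on low counts (0.0130) and the replicate block with UQ factors (0.893), and kept with the block and RUVs factors. With UQ factors alone 0 of the 17 were called, and Dlg2 had an edgeR FDR of 0.966.

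In the other lists 0 genes were called in any of the 3 comparisons. Of the 14 AMPA receptor auxiliary subunits, 5 had an unadjusted p below 0.05 in FC vs CC in edgeR, against 16.5% of all genes, and 4 in RT vs CC, against 11.1%. The smallest p values belonged to the TARP gene Cacng3 (-0.12 in FC vs CC, edgeR FDR 0.0318) and to Gsg1l (-0.22, edgeR FDR 0.0506). Of 14 genes for AMPA receptor binding and trafficking, Grip2, a PDZ protein that binds GluA2, was at -0.14 (edgeR FDR 0.0763) and Dlg1, which encodes SAP97, at -0.095 (edgeR FDR 0.124). Among 13 postsynaptic scaffold genes the smallest p values were those of Shank2 and Shank1, at -0.089 and -0.12 in FC vs CC (edgeR FDR 0.0820 and 0.0901). Of the FC libraries only FC3 lay below the CC range for these, with 3896 and 8795 normalized counts. RT3 lay below it too, with 6182 and 16652. The other FC libraries had 10468 to 11082 and 25505 to 28645, and CC 9753 to 11878 and 24724 to 31256. Of the 7 tested metabotropic receptor genes out of 8, Grm4 came nearest to the threshold in FC vs CC, at -0.20 (edgeR FDR 0.0108), followed by Grm7 (-0.079, edgeR FDR 0.266). Grm6 was left out by the filter on low counts. The 8 kainate and delta receptor genes were led by Neto2 (-0.13, edgeR FDR 0.178) and Grid1 (-0.064, edgeR FDR 0.410). FC3 was the lowest FC library for Gsg1l, Grip2, Dlg1, Grm7, Neto2 and Grid1 too, and the highest for Cacng3 and Grm4. Slc17a6, the vesicular glutamate transporter VGLUT2, led the 9 genes of glutamate release and uptake at -0.31 (edgeR FDR 0.0423). The Adar family genes Adarb1 (-0.054 in RT vs CC, edgeR FDR 0.512), Adarb2 (0.10 in FC vs CC, edgeR FDR 0.154) and Adar (-0.039 in FC vs CC, edgeR FDR 0.510) were not called. Neither were Grin3b and Grina, at 0.071 in FC vs CC (edgeR FDR 0.929) and 0.023 in RT vs CC (edgeR FDR 0.845).

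Across the 13 libraries other than FC3 and RT3, the profile of each subunit gene was compared with 13746 tested genes that averaged at least 100 normalized counts, by Pearson's r of log2(normalized count + 1). The values describe these libraries, which all genes share, and carry no test. Among the subunit genes, 4 of 45 pairs had r above 0.5, namely Gria3 with Gria4 (0.81), Gria2 with Gria3 (0.77), Grin2a with Grin2b (0.64) and Gria4 with Grin3a (0.54). Another 7 pairs were below -0.5, the lowest being Gria1 with Gria4 (-0.68). No subunit gene was among the 2 genes most like another. Those most like Gria1 were Snrnp200 (r = 0.93) and Orai2 (r = 0.92), and those most like Gria2 were B230219D22Rik (r = 0.98) and Osbpl8 (r = 0.98). For Gria3 they were Fgfr1op (r = 0.93) and Fyttd1 (r = 0.92), and for Gria4 Hdgfrp3 (r = 0.92) and 5530601H04Rik (r = 0.92). Grin1 had BC018242 (r = 0.93) and Coro7 (r = 0.91), Grin2a had Dgkh (r = 0.97) and Mdn1 (r = 0.96) and Grin2b had Sec63 (r = 0.88) and Cep70 (r = 0.86). For Grin2c they were 2310047M10Rik (r = 0.90) and Fsd1 (r = 0.89), for Grin2d Zfp28 (r = 0.88) and Pcgf2 (r = 0.87) and for Grin3a Btbd11 (r = 0.91) and Arnt2 (r = 0.89). With all 15 libraries only 3 of these 20 names were kept, Snrnp200 for Gria1, Pcgf2 for Grin2d and Btbd11 for Grin3a.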

How the data were processed

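PolyA-selected hippocampal RNA was sequenced in 15 libraries, 5 each of FC, RT and CC. The authors aligned reads with GSNAP to mm9 and counted uniquely mapped pairs per Ensembl gene with HTSeq 0.6.1, so the deposited values are raw counts, with no normalization. The strand setting of HTSeq is not given in the sources used here. Reads outside annotated exons are not in the counts. No column of another sample was used.

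Of 37310 genes, 18008 passed a filter (over 10 reads in over 5 libraries) and were tested in edgeR 4.0.16 (R 4.3.3), with a likelihood ratio test at an FDR of 0.01. RUVs was written anew from its algorithm, with 5 factors using 625 negative control genes listed by the authors. SEs are Wald errors. RPKM used all annotated exons and library totals. RUVs-adjusted counts were put back on the scale of each gene's own mean, so they compare libraries only within a gene. GC content and sequences came from the Ensembl transcripts of mm9, aligned with mafft 7.526. DESeq2 1.42.0, the quasi-likelihood test, TMM factors, 1 or 3 factors, all genes as controls, other filters, a block for library number and leaving out each library, or FC3 with RT3, were alternatives. Each lane held 1 library per group. Deviations from the group means correlated between same-numbered FC and RT libraries at 0.41 to 0.929 across 13700 genes, and up to 0.779 without FC3 and RT3. Libraries of different numbers reached 0.708 between FC and RT, so these values do not settle whether the numbers pair the groups. With CC, same-numbered libraries reached 0.381 (FC) and 0.0999 (RT), and those of different numbers 0.571 and 0.61. No 2 libraries of a group agreed within sampling noise. The code was tested on simulated data.

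Named genes were all 10 members, in each list the 2 to 4 of smallest p over FC vs CC and RT vs CC, and the 2 genes most like each member. Of the list symbols, 4 were matched by an older name. Some named genes and a sequence are not reported here. The members and lists were chosen with earlier results of these data known.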

Additional observations from a re-analysis of the deposited data

Results flagged for a closer look

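Each group of 5 libraries was examined for a library whose distance to its nearest neighbour is more than 0.71 of the range of the group (Dixon's criterion), for the normalized counts of the 10 subunit genes and for 3 ratios, 39 groups in all. Chance alone gives about 1 in 20. There were 12 such libraries, 6 of them FC3, 4 RT3 and 2 others. FC3 lay far below the other FC libraries for Gria2 (10557 normalized counts) and Gria3 (5109), and far above them for Grin2b (1687) and Grin2c (4594). RT3 lay far below the other RT libraries for Gria3 (6939) and Gria4 (2093). The ratio of Grin2b to Grin2a per kilobase was 10.4 in FC3 and 2.08 in RT3, far above their groups. The ratio of AMPA to NMDA receptor genes was 2.59 in FC3 and 3.67 in RT3, far below theirs. Both libraries also stood apart over all genes. In CC, Gria1 was high in CC8 (70032) and Grin2d in CC5 (1471).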

How the results depend on the processing

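The count of subunit genes called was 0 in FC vs CC under all 28 alternative models and samples. Leaving out single libraries gave 0 to 1 in RT vs CC (1 only without CC6) and 0 to 1 in FC vs RT (1 only without CC5), Grin2b each time, and every other setting gave 0. The cause was not tested. In the model as reported an FDR of 0.05 also gave 0 in each comparison, but under some of the other settings the FDR of Grin2b (RT vs CC and FC vs RT), Gria2 and Gria4 was below 0.05. The lowest values of Gria2 and Gria4 were 0.0215 and 0.0221 in FC vs CC, 0.0451 for Gria4 in RT vs CC and 0.0333 for Gria2 in FC vs RT. The replicate block changed no call of a subunit gene, with UQ factors (0 in each comparison) or with RUVs factors (0 in each). Counts over all genes moved by more than 1.5 times. In FC vs CC, RT vs CC and FC vs RT they were 403, 182 and 22, against 34, 19 and 0 with UQ factors alone, 122, 85 and 0 with 1 factor, 176, 123 and 1 with 3 factors, 98, 66 and 0 by the quasi-likelihood test, 164, 85 and 4 by DESeq2, 815, 311 and 98 at an FDR of 0.05, and 249 to 653, 145 to 276 and 11 to 92 without 1 library (lowest without FC5, RT5 and FC5, highest without CC8, CC8 and RT8). In FC vs CC, no filter gave 266. In FC vs RT, all genes as controls gave 39 and leaving out FC3 and RT3 62. A replicate block gave 45, 27 and 0 with UQ factors and 82 in FC vs RT with RUVs factors. UQ without FC3 and RT3, chosen after seeing the data, gave 110, 66 and 0. Without FC3 and RT3 the log2 fold change of Dlg2 in FC vs CC turned to 0.037 with RUVs factors and 0.073 with UQ factors. Per kilobase of the longest transcript, AMPA to NMDA genes were at 2.94 in FC, 2.86 in RT and 3.10 in CC, and the mean Grin2b to Grin2a ratio per kilobase was 0.604 in FC without FC3. Precision was lowest for Grin2a and Grin2b, with SEs of 0.10 on the log2 scale against 0.03 for Gria1.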
